A study of Phaseolus vulgaris with 2 samples.

Results

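The genes described here are heat response genes of common bean that carry no protein folding annotation. In the Gene Ontology (GO) column of the expression table, 312 of 27197 genes carried the term response to heat. Of these, 208 also carried protein folding (175 genes), unfolded protein binding (29 genes) or response to water deprivation (37 genes) and were left out, whereas none carried circadian rhythm, the last of the excluding terms. The other 104 genes are the members. The rule also left out 6 heat genes by identifier, among them HSFA2, MBF1C and HSP101, but all 6 carried protein folding and were out already. The rule reads no measured value, although it was set with earlier results of these data known.

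Plants respond to heat in several layers. Heat stress transcription factors, which bind heat shock elements in promoters, switch on chaperones that hold or refold damaged proteins, and this layer is the best known. Beside it, the ubiquitin and proteasome system removes proteins beyond repair, and SUMO attachment modifies proteins reversibly. NADPH oxidases and ascorbate and glutathione enzymes set the level of reactive oxygen, and osmolyte, membrane and cell wall enzymes adjust metabolism and growth. The members include genes of this second layer, transcription factors, genes whose products bind chaperones, and genes known only by stress terms.

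RNA-Seq was made from the aerial tissue of the cultivar Pinto Saltillo (PS), of wild type genotype, a commercial bean with drought tolerance. Well-watered plants (control) were compared with plants that received no irrigation for 2 weeks from the age of 45 days (drought), and both groups were otherwise grown alike in a greenhouse with nutrient solution. Tissue of 6 to 9 plants was pooled for each group, and RNA was pooled again by condition. The labels speak of more than 1 library per treatment, but in the table every gene has a single FPKM for each condition. A gene's 2 values therefore have no replicate error, and no test was made. Expression is given as FPKM, in which fragments are scaled to transcript length and to the mapped reads of the library. Each log2 ratio compares FPKM + 1 under drought with FPKM + 1 under irrigation, which understates the change of low genes. Heat was not among the treatments.

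The lack of a folding term does not make every member a gene outside the chaperones. The study gives Arabidopsis names only to genes it selected as changed in these same libraries. Among the members, 7 have such a name, and 3 of them are named as heat shock or alpha-crystallin proteins, namely Phvul.006G150600, Phvul.008G264700 (ACD32) and Phvul.008G209700. The alpha-crystallin domain is the part that small heat shock proteins have in common. The members are therefore called heat genes without a folding term, and how many of the unnamed ones are also chaperones was not tested. As a check of the tissue, 138 of 149 photosynthesis genes reached 1 FPKM in control and 141 in drought, with summed levels of 35069 and 47616 FPKM. For genes of secondary cell wall biogenesis, a sign of stem and vascular tissue, 24 of 78 reached 1 FPKM in control and 54 in drought, and the sums were 471 and 833 FPKM. Genes of lignin synthesis, which also marks vascular tissue, went the other way in sum, from 1928 to 1723 FPKM, while 47 of 81 reached 1 FPKM in control and 53 in drought. The part of such shifts in tissue makeup in the values of the members was not tested, and in pooled tissue fewer cells of a type and less RNA per cell cannot be told apart.

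The members did not move as a block between control and drought. In at least 1 of the libraries, 91 of the 104 genes reached 1 FPKM, and their median log2 ratio was −0.10, next to −0.03 over all 19661 genes that passed the same limit. Of the 91 genes, 49 were lower and 42 higher in drought, and 68 stayed within 2-fold. Without the limit, 50 of the 104 genes were lower, 53 were higher and 1 was listed at 0 in both libraries, with a median of 0.016. With equal FPKM totals for the libraries, the median of the 91 genes was 0.0069 and that of all genes 0.06, so the sign of these small medians depends on the scaling. The limit itself favours genes that were higher in drought, because 14 members passed it only through the drought library and 1 only through the control library. Summed over the 104 genes, their share of the total FPKM was 0.413% under irrigation and 0.421% under drought.

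Only a few members stood far from equality. By at least 4-fold, 3 members were lower in drought, 3.30% of the 91 genes beside 1.62% of all genes. On the higher side there were also 3, or 3.30% beside 2.48% of all genes. With the looser limit of 2-fold, 9 members were lower, 9.89% of the 91 genes beside 6.6% of all genes. Higher by that limit were 14 members, 15.4% beside 11.7% of all genes. Each share lay above that of all genes but rests on few members, and the difference was not tested. Of the 14 higher members, 10 were below 1 FPKM in control and had to be higher to reach 1 FPKM. From 1 to 10 FPKM in control, 15% of 20 members were at least 2-fold higher, beside 14.2% of all genes. From 10 to 100 FPKM it was 2.22% of 45 members beside 3.78%, and above 100 FPKM none of 12 beside 3.38%. The larger share on the higher side is therefore not read as a result about the members. The pseudocount decided the count on the higher side. With 0.1 added in place of 1, 11 of the 91 members were at least 4-fold higher, and the share of all genes was then 6.63%.

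**Figure D1:**
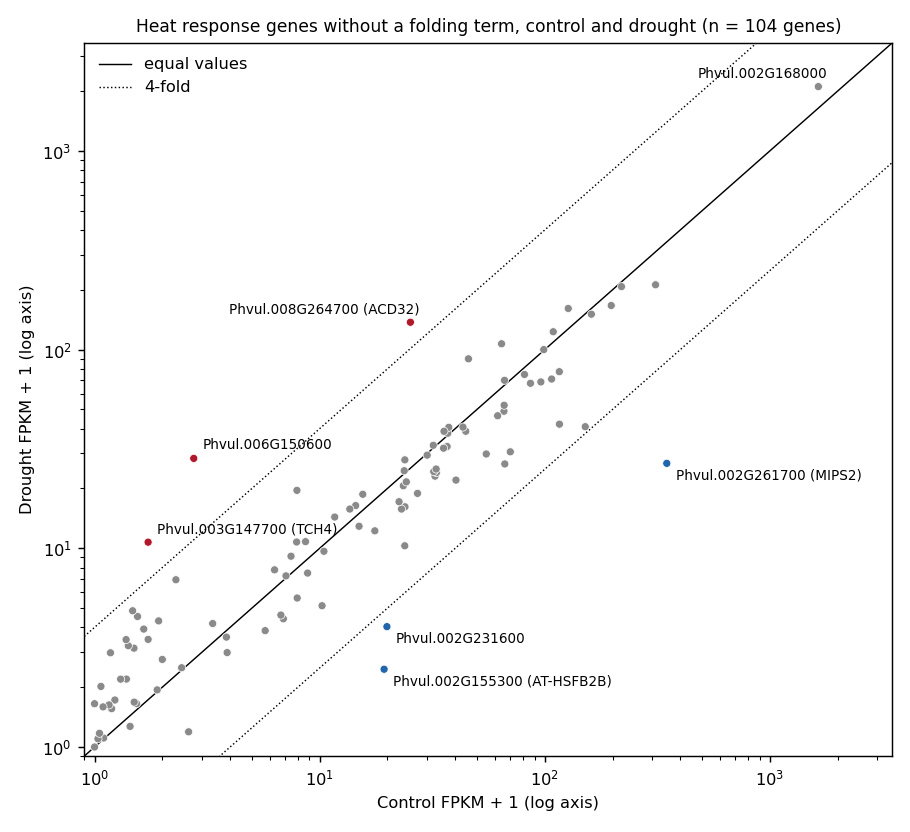
FPKM + 1 of the 104 members in the control library (horizontal) and the drought library (vertical), both on log axes; each point is 1 gene, blue and red points are at least 4-fold lower and higher in drought, and dotted lines mark 4-fold. Most points lie along the line of equal values, with 3 genes beyond the limit on each side, and the most abundant member, Phvul.002G168000, sits near the line at the top.

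Heat genes with a folding term went another way in the same libraries. Of these 175 genes, 143 reached 1 FPKM in either library, and their median log2 ratio was −0.80. By at least 2-fold, 60 of them were lower and 4 higher, and by at least 4-fold 23 were lower and 1 higher. The middle of the distribution for the members, from −0.50 at the lower quartile to 0.33 at the upper, lay close to that of all genes, from −0.37 to 0.45. For the folding genes the quartiles were −1.44 and −0.12. These are descriptions of a pair of libraries, and the difference between the lists was not tested.

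**Figure D2:**
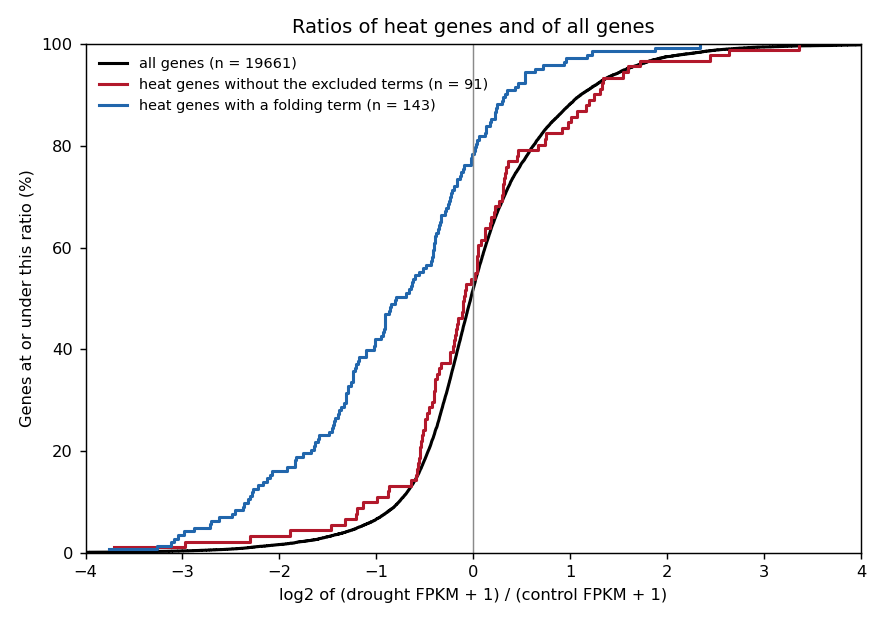
Cumulative share of genes (vertical, in percent) at or under each log2 ratio of FPKM + 1, drought over control (horizontal) for all genes (black), heat genes without the excluded terms (red) and heat genes with a folding term (blue), limited to genes that reached 1 FPKM. The red line runs near the black one, with medians of −0.10 and −0.03, while the blue line lies to the left with a median of −0.80.

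Other lists close to the members had small medians too. The 28 passing heat genes that carry water deprivation and no folding term had a median log2 ratio of −0.20. Genes without the heat term had medians of −0.06 for heat acclimation (41 genes), −0.12 for response to high light intensity (82 genes) and −0.19 for response to hydrogen peroxide (48 genes). In each of these 3 lists none was at least 4-fold higher, and 1 or 2 genes were at least 4-fold lower.

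The lowest ratio among the members was that of MIPS2 (Phvul.002G261700), on chromosome 2 from 42812519 to 42817020, an inositol-3-phosphate synthase. This enzyme makes the first precursor of myo-inositol, from which membrane lipids, phytate and osmoprotective sugars derive. MIPS2 was at 347 FPKM in control against 25.8 FPKM in drought, a log2 ratio of −3.70. Another member, Phvul.001G251000, carries exactly the same terms and went from 53.9 to 28.8 FPKM (log2 ratio −0.88.) Both genes were lower in drought, and the large gap between them in control was nearly gone in drought. Together they gave 401 FPKM in control against 54.6 FPKM in drought.

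AT-HSFB2B (Phvul.002G155300), on chromosome 2 from 29686273 to 29687420, was the transcription factor with the lowest ratio. Class B heat stress factors act in Arabidopsis mainly as repressors, and the gene is annotated with negative regulation of transcription. It had 18.3 FPKM in control against 1.46 FPKM in drought, a log2 ratio of −2.97. Its counterpart with the same terms, Phvul.007G067800, had 22.1 and 14.8 FPKM (log2 ratio −0.55.) The pair was about level in control and apart in drought.

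The remaining factors moved little or were low. Of 11 transcription factors that reached 1 FPKM, 5 were lower and 6 higher in drought, and the median log2 ratio was 0.29. A set of 4 factors annotated with asymmetric cell division was higher in drought throughout, from 2.88 FPKM in control to 6.61 FPKM in drought when summed. The highest ratio among them was that of Phvul.009G065800, at 0.412 and 2.23 FPKM (log2 ratio 1.20.) Since 3 of these 4 were below 1 FPKM in control, those that passed the limit had to be higher. The 2 factors annotated with the respiratory burst in defense, Phvul.006G171700 and Phvul.002G242000, had log2 ratios of −0.39 and −0.24.

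The remaining member at least 4-fold lower was Phvul.002G231600, on chromosome 2 from 39724984 to 39725630, whose other term is cytoplasm. It was at 18.9 FPKM in control against 3.03 FPKM in drought, a log2 ratio of −2.30, just inside the limit of 2. It lies in a short row of heat genes. Its neighbours on both sides, Phvul.002G231500 and Phvul.002G231700, do carry the folding term, and went from 8.40 to 1.48 FPKM and from 7.64 to 1.42 FPKM. The row was not uniform, as Phvul.002G231400, with the folding term, had 17.1 and 21.1 FPKM, and the member Phvul.002G231300 had 0.897 and 0.938 FPKM. Whether these genes are similar enough for reads to be split between them was not tested. Phvul.009G152400, with the same terms as Phvul.002G231600, had 9.24 and 4.14 FPKM, a ratio of 2.23 that falls just short of 2-fold on the scale of FPKM + 1.

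Just outside the limit was Phvul.009G194100, on chromosome 9 from 28760667 to 28762578. It is annotated with transport and with response to heat, cold and light. Its values were 150 FPKM in control against 39.9 FPKM in drought, a log2 ratio of −1.89. A gene with identical terms, Phvul.003G158100, had 35.8 and 31.5 FPKM, so that the more abundant of this pair in control was the one with the lower ratio.

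On the other side, the highest ratio was that of Phvul.006G150600, on chromosome 6 from 26389882 to 26391115, named by the study as a class V heat shock protein. Small heat shock proteins hold unfolding proteins until other chaperones refold them. It had 1.76 FPKM in control against 27.3 FPKM in drought, a log2 ratio of 3.36. No other member carries the same set of terms.

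TCH4 (Phvul.003G147700), on chromosome 3 from 34748130 to 34749345, encodes a xyloglucan endotransglucosylase/hydrolase, an enzyme that cuts and rejoins the xyloglucan tethers of the cell wall. In Arabidopsis this gene is known for its response to touch. It went from 0.729 to 9.73 FPKM (log2 ratio 2.63.) XTH17 (Phvul.003G147600), of the same enzyme class, starts at 34745981 and ends 778 bases before TCH4. Its values were 0.552 FPKM in control against 3.54 FPKM in drought, a log2 ratio of 1.55. Both adjoining genes were below 1 FPKM in control, as was the gene before them, Phvul.003G147500, at 0.408 and 1.93 FPKM (log2 ratio 1.06). The gene that follows TCH4, Phvul.003G147800, had 44.2 and 50.1 FPKM. With a pseudocount of 0.1 the log2 ratio of XTH17 was 2.48, past the limit of 4-fold.

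ACD32 (Phvul.008G264700), on chromosome 8 from 57637034 to 57640712, codes for a protein with an alpha-crystallin domain and is annotated with the peroxisome, photorespiration and starch synthesis. It was at 24.3 FPKM in control against 136 FPKM in drought, a log2 ratio of 2.44, and was the member nearest to the limit from inside on the higher side. Phvul.003G195300, with the same terms, went from 1.30 to 5.94 FPKM (log2 ratio 1.60.) So both genes of this pair were higher in drought, at very different levels.

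Nearest from outside on this side was Phvul.008G209700, which the study names as a heat shock family protein. Its values were 0.476 and 3.85 FPKM (log2 ratio 1.72), which became 2.78 with a pseudocount of 0.1. It shares all its terms, heat, high light intensity, hydrogen peroxide, nucleus and membrane, with 6 other members. All 7 were below 1 FPKM in control and higher in drought, with sums of 2.20 and 11.9 FPKM, but only 4 of them reached 1 FPKM. Phvul.008G209800, which lies 2340 bases away, had 0.177 and 1.98 FPKM. Among all tested genes below 1 FPKM in control, every one was higher in drought because the limit requires it, and their median log2 ratio was 1.03.

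**Figure D3:**
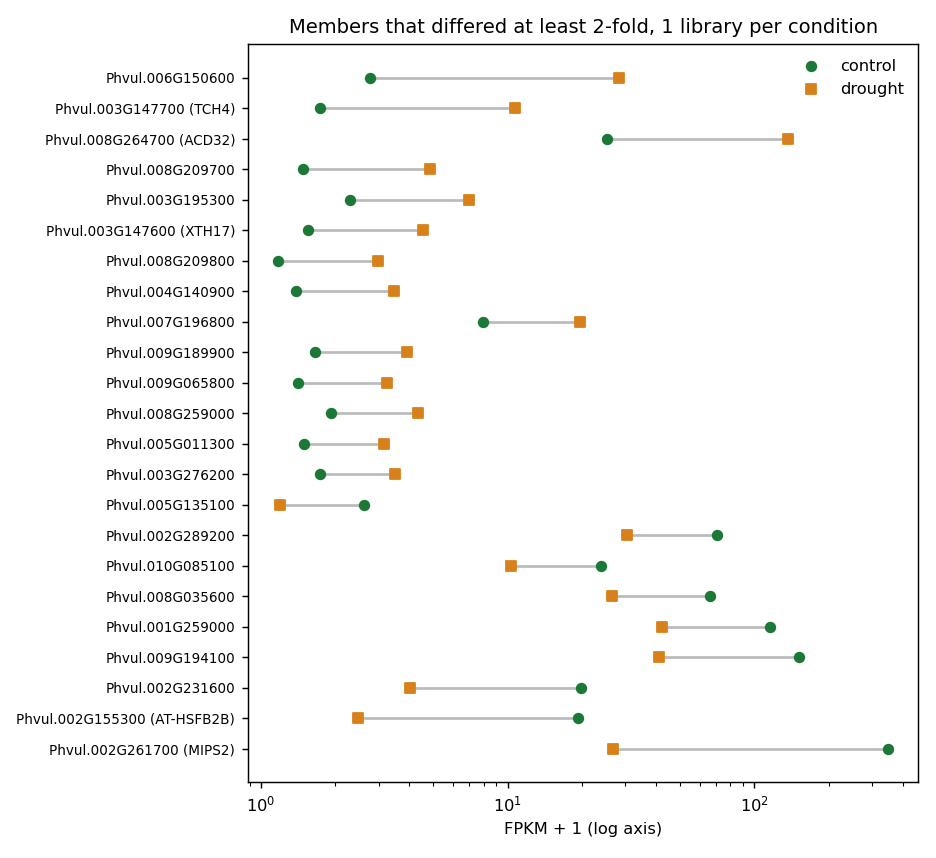
FPKM + 1 on a log axis in control (green circles) and drought (orange squares) for the members whose values differed at least 2-fold, 14 higher in drought (top) and 9 lower (bottom), ordered by log2 ratio. The genes that were higher in drought mostly start near the left edge, with ACD32 at 24.3 FPKM the main exception, while those that were lower start at up to 347 FPKM.

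Sorted by control FPKM, the higher genes were more often lower in drought, among the members as among all genes. The control value is also the denominator of each ratio. With 1 library per condition, error in that value by itself tilts the classes this way, so no conclusion is drawn from the tilt. Of 12 members with at least 100 FPKM in control, 9 were lower in drought, beside 981 of 1481 for all genes. Between 10 and 100 FPKM, 30 of 45 members were lower, beside 5891 of 9148. From 1 to 10 FPKM the members were split 10 to 10. These shares are close to those of the whole table at the same level. By at least 2-fold above 100 FPKM, 3 members of 12 were lower and none higher, beside 15.8% and 3.38% of all genes. Below 1 FPKM in control, 10 of 14 members (71.4%) were at least 2-fold higher, beside 53.1% of all genes there, and all of these had to be higher to pass the limit.

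Genes of protein turnover differed little, mostly with lower values in drought. The ubiquitin, proteasome and SUMO genes tag proteins, remove them or modify them reversibly. Of 12 that reached 1 FPKM, 10 were lower and 2 higher in drought, none by 2-fold, and their log2 ratios ran from −0.59 to 0.34. Among all genes 10219 of 19661 were lower, and 5891 of 9148 of those from 10 to 100 FPKM in control. Several of the 12 are pairs with identical terms. The sum over the group was 1078 FPKM in control against 932 FPKM in drought. Phvul.002G160300 and Phvul.004G104600, annotated with the SCF ubiquitin ligase complex, had the lowest ratios. The former went from 106 to 70.1 FPKM and the latter from 115 to 76.4 FPKM, nearly the same proportion. Proteasome genes lay between −0.48 and −0.12, as shown by Phvul.001G168800 at 95.0 and 67.7 FPKM. Among 3 genes annotated with SUMO attachment and heat acclimation, Phvul.006G047600 was at 218 and 206 FPKM and Phvul.008G129000 at 126 and 160 FPKM. The ratio of the former, −0.08, changed sign with scaling to the same sum. The last gene of the set, Phvul.003G291000, had a far lower level, at 5.72 and 3.61 FPKM. The only member listed at 0 in both libraries, Phvul.L010200, is also annotated with SUMO attachment.

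Enzymes that make ascorbate and glutathione, the main soluble antioxidants of plant cells, were among the abundant members. Phvul.008G269600 and Phvul.006G046700 carry a guanylyltransferase activity that commits GDP-galactose to ascorbate. The former had 309 FPKM in control against 211 FPKM in drought, a log2 ratio of −0.55, and the latter 196 and 166 FPKM (log2 ratio −0.24.) An earlier step of the same pathway, synthesis of GDP-mannose, went the other way. Phvul.008G230600, a mannose-1-phosphate guanylyltransferase gene, had 44.8 and 88.8 FPKM (log2 ratio 0.97), and Phvul.001G236800, with the same terms, had 12.6 and 14.8 FPKM. Glutamate-cysteine ligase, which starts glutathione synthesis, was represented by Phvul.002G289200 at 69.3 and 29.6 FPKM (log2 ratio −1.20.) A gene with identical terms, Phvul.002G157600, was close to 0 in both libraries, at 0.0355 and 0.0998 FPKM.

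NADPH oxidases, membrane enzymes that release superoxide outside the cell, were higher in drought in all 3 cases, but only 1 by more than 2-fold. Among all genes 9442 of 19661 were higher. Phvul.007G196800 went from 6.92 to 18.6 FPKM (log2 ratio 1.30.) Phvul.006G090200, with the same terms, had 10.7 and 13.4 FPKM, and the most abundant of the group, Phvul.009G159200, had 65.2 and 69.0 FPKM. The order of the first pair was thus reversed between the libraries.

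Protein kinases and phosphatases relay stress signals by adding or removing phosphate. Of 5 members, 4 were lower in drought, with log2 ratios from −0.57 to −0.40, and 1 was at 0.05. Among all genes 10219 of 19661 were lower, and 5891 of 9148 of those from 10 to 100 FPKM in control. Phvul.008G081400, a kinase gene annotated with abscisic acid signaling, had 31.5 and 22.1 FPKM. Phvul.003G195500, with the same terms, had 22.7 and 23.6 FPKM. The calcium-binding gene Phvul.010G085100, annotated with many hormone responses, was lower by more, from 22.9 to 9.29 FPKM (log2 ratio −1.21.)

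Of 13 passing members with the chloroplast term, 4 were at least 2-fold lower and 2, TCH4 and XTH17, at least 2-fold higher, beside 220 and 244 of 3157 other genes with the term, and the median log2 ratio of the members was −0.09. The 4 lower genes are among the 10 passing members grouped here as plastid enzymes, a grouping made after the values were seen. Phvul.001G259000, a gene of glyceraldehyde-3-phosphate dehydrogenase in glycolysis that is annotated with several compartments, went from 115 to 41.1 FPKM (log2 ratio −1.46.) Phvul.008G035600, an ATPase gene of the chloroplast stroma, went from 65.4 to 25.6 FPKM (log2 ratio −1.32.) Its counterpart by annotation, Phvul.004G034000, stayed level at 34.7 and 37.8 FPKM, so the order of that pair was also reversed. Phvul.005G135100, annotated as isoprene synthase, which makes a volatile that protects leaf membranes from heat, was low, at 1.62 and 0.193 FPKM. Phvul.009G054200 and Phvul.001G062000 had log2 ratios of 0.03 and 0.22. These 2 genes are annotated with metalloprotease activity, with chloroplast and mitochondrion, and with breakdown of a light-harvesting complex.

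Genes whose products bind chaperones differed little as well. Of 6 members that reached 1 FPKM, 5 were higher and 1 lower, with a median log2 ratio of 0.11. Among all genes 9442 of 19661 were higher. The most abundant was Phvul.007G106500, annotated with heat shock protein binding and cellular heat acclimation, at 108 and 122 FPKM. At least 2-fold higher was Phvul.008G259000, at 0.926 and 3.31 FPKM, in a set of 4 genes whose other members had log2 ratios between −0.17 and 0.27. Phvul.008G259000, counted among the 5, was below 1 FPKM in control and had to be higher to reach 1 FPKM. Genes of DNA repair and recombination were of low level, with log2 ratios from −0.64 to 0.04 over 5 genes and summed levels of 26.6 and 20.8 FPKM.

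**Figure D4:**
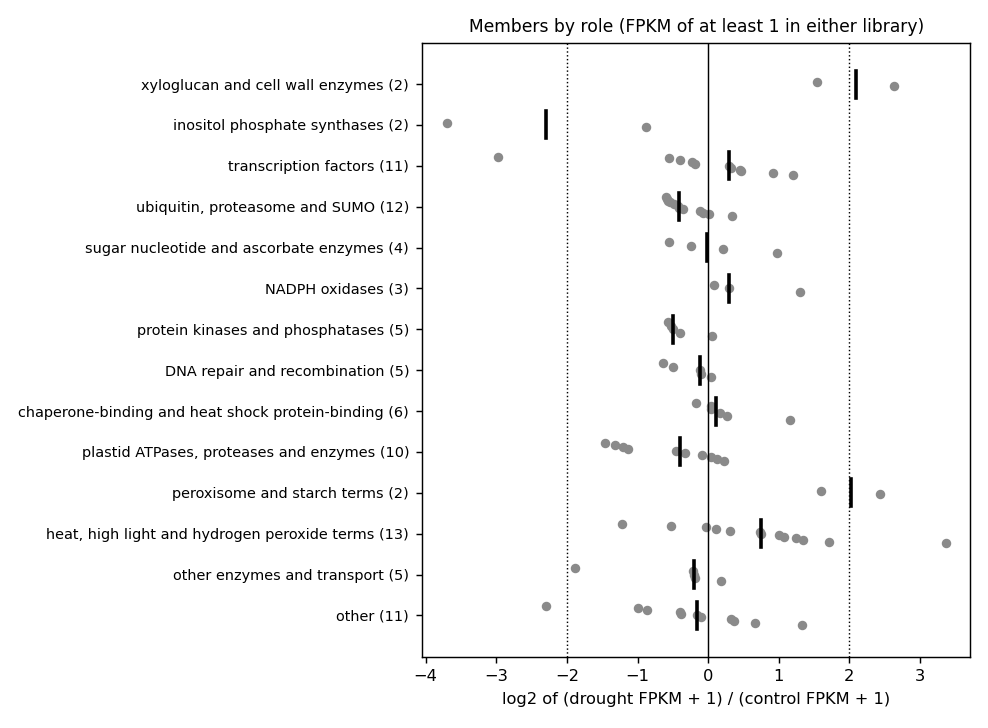
Log2 ratio of FPKM + 1, drought over control (horizontal) for the 91 members that reached 1 FPKM, by role assigned from GO terms, with the number of genes in brackets; each point is 1 gene, black bars are medians and dotted lines mark 4-fold. Ubiquitin, proteasome and SUMO genes lie in a narrow band from −0.59 to 0.34, and the genes beyond the dotted lines come from 6 different roles.

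The most abundant member by far was Phvul.002G168000, on chromosome 2 from 31069120 to 31069705, annotated with response to cold, heat and bacterium and with abscisic acid signaling, with no known molecular function. It had 1639 FPKM in control against 2103 FPKM in drought, a log2 ratio of 0.36. Without it, the summed level of the members was 3815 FPKM in control against 3066 FPKM in drought. Phvul.008G112700, which carries response to oxidative stress, was also abundant and stayed level, at 160 and 150 FPKM.

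Several members share the whole text of their annotation, which gives 59 different texts for 104 genes. There are 29 sets of 2 or more genes, with 74 genes in all. In 10 sets every gene was lower in drought, in 9 every gene was higher, and in the other 10 the genes were split. These counts and the ranges that follow include genes below 1 FPKM in both libraries, whose ratios the pseudocount holds close to equality. The pairs annotated with glutamate-cysteine ligase and with isoprene synthase each hold such a gene. Both pairs count as split and as differing by more than 1. The log2 ratios within a set differed by more than 1 in 12 sets, the widest being MIPS2 and Phvul.001G251000, at 2.82. At the other end, the genes of the SCF complex differed by 0.01, as did Phvul.001G177500 and Phvul.007G150600, both annotated with many hormone responses. Next to the 23 members that differed at least 2-fold there are 46 adjacent positions, and at 13 of them the gene also differed at least 2-fold in the same direction. Neighbours were taken without the limit of 1 FPKM. Over all 27197 genes without that limit, 4.77% were at least 2-fold lower and 8.49% at least 2-fold higher. Of the 13 positions, 4 are the neighbours XTH17 and TCH4 and the neighbours Phvul.008G209700 and Phvul.008G209800, each pair counted from both sides, and whether adjacent genes shared a direction more often than others was not tested.

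**Figure D5:**
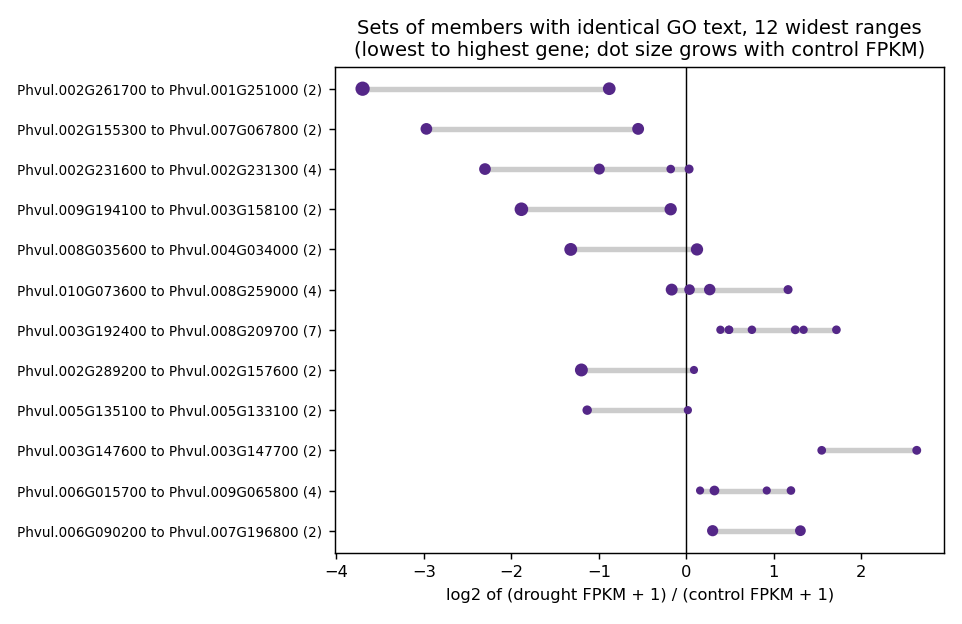
Log2 ratio of FPKM + 1, drought over control (horizontal) in the 12 sets of members with identical GO text that span the widest range; each row is 1 set, named by its lowest and highest gene with the number of genes in brackets, each point is 1 gene and larger points have a higher control FPKM. In the top row the inositol-3-phosphate synthase genes lie at −3.70 and −0.88. Genes below 1 FPKM in both libraries are included.

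By terms that the rule did not use, the members differed somewhat among themselves. The 18 passing members with response to high light intensity had a median log2 ratio of 0.26, beside −0.15 over the 73 passing members without it. The other 208 passing genes with that term had a median of −0.40. For response to hydrogen peroxide the medians were 0.21 over 18 members, −0.11 over the 73 without it and −0.43 over 175 other genes. Those other genes include heat genes that the rule left out. Genes without the heat term had smaller medians, −0.12 for high light intensity (82 genes) and −0.19 for hydrogen peroxide (48 genes). The values of 0.26 and 0.21 rest on low genes, since they became 0.0021 and −0.54 when 1 FPKM was required in each library. The 6 passing members with response to cadmium ion were all lower in drought, with a median of −0.46, and include pairs of proteasome genes with identical terms. Of the other passing genes with that term, 296 of 497 were lower, with a median of −0.12. The 5 members with response to oxidative stress were also all lower, with a median of −0.21, beside 122 of 215 other genes (median −0.13). Among these 5, Phvul.008G112700 turned to 0.0069 with scaling to the same sum. Members with the term cytosol had a median of −0.27 over 26 genes, beside −0.16 over 1941 other genes. For response to cold, response to salt stress, transcription, chloroplast, mitochondrion, nucleus and plasma membrane the medians lay between −0.20 and −0.07.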

How the data were processed

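Aerial tissue of PS was sequenced from poly(A) RNA with single-end reads, 1 value per gene for control and 1 for drought. Trimming (Trimmomatic), alignment (TopHat), assembly (Cufflinks, Cuffmerge) and quantification (Cuffdiff) were done by the authors. The submitters' processing notes also name CASAVA 1.8.2 and FastQC. The deposited FPKM values are Cuffdiff's estimates, scaled by the authors to transcript length and mapped reads. The table also holds Cuffdiff's fold changes, test statistics, p and q columns, which were not used. Reads per gene are not given, so no counting interval was computed. In 1799 genes under 0.3 FPKM in both libraries, the commonest control to drought ratio was 0.944, within 0.1 of which on the log2 scale lay 229 genes. Because FPKM are already scaled by library, this ratio is only a rough guide to relative depth. The paper lists fewer mapped reads for drought than for control. Sums of FPKM were 1319560 and 1228410.

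From these values the log2 ratio with a pseudocount of 1 was computed in Python 3.11.15 with pandas 2.3.3. Counts used genes that reached 1 FPKM in control or drought. With 1 library per condition, no p-value was computed. The ratio and counting code was tested on simulated data. Members and lists were chosen with earlier results of these data known, and roles, sets by shared text and neighbours were defined after the values had been seen. Genes to be named were those past 4-fold, those named in the study's ortholog list of changed genes, the 8 most abundant and those nearest the limit on each side; a further part of the rule, extremes of roles in a reference annotation, could not be applied, because the RefSeq gene table matched 0 of the identifiers. Other genes named were chosen after their values were seen. GO texts end at 1024 characters in 227 genes, 6 of them members, so an excluding term may be missing there. Of the members, 1 (Phvul.003G276200) shares its locus with another gene. Coordinates are those of the table; its identifiers and the methods name different annotation versions, so the build is not settled. Sequences were not used here. Alternatives changed the pseudocount, scaling, filter and choice of members.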

Additional observations from a re-analysis of the deposited data

How the results depend on the processing

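Depth per gene is unknown, which limits members under 1 FPKM most. Of the 16 genes named by rule, 80 values under 5 settings (the pseudocounts and scalings) gave 4 changes of sign, in Phvul.006G047600 and Phvul.008G112700 under both scalings to a common total or quartile, and 4 changes of side of the 4-fold limit, all under a smaller pseudocount. The median of the members became 0.0069 with the same sum of FPKM in both libraries and 0.016 with no filter. That scaling moved the median of all genes from −0.03 to 0.06. Members at least 4-fold higher numbered 11 with a pseudocount of 0.1, 12 with 0.01 and 1 without those named as heat shock or alpha-crystallin proteins, an alternative chosen after seeing the data. With the limit at 2-fold, 14 were higher and 9 lower. With the 6 excluded identifiers put back, 8 were at least 4-fold lower. All genes past 4-fold numbered 318 lower and 487 higher, and 519 and 1413 with a pseudocount of 0.01.

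Medians by term moved as follows. With the same sum of FPKM, chloroplast and mitochondrion were both at 0.012, cytosol at −0.17, plasma membrane at −0.10 and cadmium ion at −0.35. With 1 FPKM required in each library, chloroplast was at −0.21, nucleus at −0.35, transcription at −0.24, cold at −0.29, high light intensity at 0.0021 and hydrogen peroxide at −0.54. With 5 FPKM required in either, chloroplast was at −0.21, nucleus at −0.35, transcription at −0.39, high light intensity at 0.0021 and hydrogen peroxide at −0.54. With no filter, chloroplast was at 0.017, nucleus at 0.0074, transcription at 0.040 and hydrogen peroxide at 0.35. With the excluded identifiers put back, chloroplast was at −0.39, transcription at −0.19, high light intensity at 0.0021 and hydrogen peroxide at −0.54. Without members whose GO text is cut short, transcription was at 0.29, cadmium ion at −0.84, oxidative stress at −0.38 and salt stress at −0.040. The cause of these shifts was not tested beyond the change in genes used. The alternative without heat shock proteins by a reference annotation was not run, since the reference names none of the genes. No paired analysis was possible because each condition has 1 library, and for the same reason no library could be left out.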
